A study of Homo sapiens with 8 samples.

Results

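The DNA replication machinery is described here as 47 genes that load, power and supply the replication fork, out of 67060 genes in the deposited count table. The members were taken from a list of gene symbols by function, matched to the table's Ensembl identifiers; the rule sets no threshold on a measured value, but the list was drawn up with earlier results of these data known. All 47 were found and all 47 passed the filter on low counts. The measurements come from RNA sequencing of SH-SY5Y, a cell line established from human neuroblastoma and labelled as a neuronal progenitor. Cells were grown to 80% confluence and given 0.5 ul of one of 2 adenoviruses, and RNA was taken 48 h later. The ERRg group (4 libraries) received BioID-Flag-ERRg, that is, estrogen-related receptor gamma (gene ESRRG) with a Flag tag, fused to the biotin ligase BioID. The GFP group (4 libraries) received BioID-GFP-NLS, the same ligase fused to nuclear green fluorescent protein. Both groups thus carried an adenovirus and the ligase, and no group without virus was analysed here. SH-SY5Y is a single cell line. Whether the replicates were separate cultures is not stated, so the p-values rest on a spread between libraries that may be technical only.

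Replication is prepared in G1, when the origin recognition complex (ORC) with CDC6 and CDT1 loads the ring of MCM proteins onto DNA. At the start of S phase CDC45 and the GINS complex join MCM to form the active helicase (CMG), and DNA polymerases copy the strands behind it, held by the PCNA clamp that RFC loads. Many of these genes are transcribed at the passage from G1 to S by E2F factors, which RB proteins hold back until cyclin-dependent kinases phosphorylate them. Estrogen-related receptors are orphan nuclear receptors best known for switching on genes of mitochondrial energy metabolism.

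The promoters of 4 members, from both ends of the members' response, are shown for the presence or absence of letters that E2F factors are known to bind. They are the 250 bases before the gene start as RefSeq gives it on GRCh38.p14, each 5′ to 3′ on the gene's own strand. Capitals mark matches to TTTCCCGC, TTTCGCGC, TTTGGCGC or TTTGCCGC on either strand. CDT1 lies on the plus strand at chr16:88803539-88803788, E2F1 on the minus strand at chr20:33686386-33686635, ORC3 on the plus strand at chr6:87589885-87590134 and ORC2 on the minus strand at chr2:200963661-200963910.
CDT1: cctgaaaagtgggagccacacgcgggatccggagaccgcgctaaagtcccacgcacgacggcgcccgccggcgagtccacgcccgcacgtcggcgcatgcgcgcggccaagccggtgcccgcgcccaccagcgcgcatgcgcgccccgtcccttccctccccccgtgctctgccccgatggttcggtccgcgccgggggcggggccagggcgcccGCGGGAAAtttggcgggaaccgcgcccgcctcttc
E2F1: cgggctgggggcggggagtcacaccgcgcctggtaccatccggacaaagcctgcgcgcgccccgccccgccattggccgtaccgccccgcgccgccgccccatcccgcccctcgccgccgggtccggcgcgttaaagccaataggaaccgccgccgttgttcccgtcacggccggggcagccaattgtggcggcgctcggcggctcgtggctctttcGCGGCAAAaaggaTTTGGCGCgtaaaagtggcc
ORC3: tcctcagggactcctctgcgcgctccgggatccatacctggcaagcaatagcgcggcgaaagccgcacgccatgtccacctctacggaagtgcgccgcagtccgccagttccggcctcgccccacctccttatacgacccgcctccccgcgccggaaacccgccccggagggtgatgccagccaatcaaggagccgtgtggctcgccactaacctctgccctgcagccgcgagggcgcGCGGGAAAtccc
ORC2: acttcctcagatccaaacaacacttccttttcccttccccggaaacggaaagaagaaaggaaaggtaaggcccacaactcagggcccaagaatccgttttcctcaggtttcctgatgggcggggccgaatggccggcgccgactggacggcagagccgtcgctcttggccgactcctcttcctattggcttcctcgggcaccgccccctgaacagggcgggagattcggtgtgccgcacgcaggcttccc

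CDT1 and E2F1, which were among the most reduced members, had 1 and 2 matches. ORC3, which was higher in ERRg cells, also had 1 match, and ORC2, also higher, had none. Of the 40 members with a promoter in the RefSeq table (250 bases before and 50 after the start), 20 held an E2F match (50%), against 5.40% of 15843 coding genes. Members with a match had a median log2 fold change of -0.75, and the 20 without one had -0.49; with the offsets for GC content, length and span described further on, the medians were -0.36 and -0.31. Of those with a match, 15 fell and 4 rose, by the calls without offsets described further on (adjusted p under 0.05). Of those without, 13 fell and 4 rose, so both kinds of promoter were found on both sides. Among all coding genes of the same fit 50.6% fell and 29% rose, and these shares were not split by match. The element TCAAGGTCA that estrogen-related receptors are known to bind was in 0 of 40 member promoters and in 0.335% of coding promoters, and its shorter core AAGGTCA in 0 of 40 and in 4.26%. The CCAAT box (letters CCAAT) was in 60% of member promoters and 42.1% of coding promoters, and the cell cycle element TTTGAA in 2.50% and 15.8%. All motifs were searched on both strands, and TCAAGGTCA contains AAGGTCA. A match is a run of letters and not a measured binding site.

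The libraries of the groups differed beyond the replication genes. Reads assigned to genes were 21.0 to 23.0 M per library in ERRg and 27.7 to 35.5 M in GFP. Reads assigned to no annotated exon were 46.7% ± 1.31 of all reads in ERRg against 20.9% ± 3.58 in GFP (SD, n = 4 each). The strand setting of the count is not given, so reads on the strand opposite to exons may be among them. ESRRG, the delivered gene, had 824, 711, 888 and 810 CPM in ERRg libraries against 32.7, 33.1, 37.1 and 36.8 CPM in GFP libraries, so each library matched its label. CPM are counts per M reads, scaled to TMM effective library sizes. Of 11 markers of noradrenergic neuroblastoma, 8 were tested and 2 were at 0 in every library, and their summed level was 529 to 577 CPM in ERRg and 749 to 854 CPM in GFP. Immune markers (4 genes) summed to at most 0.263 CPM in ERRg and 0.36 CPM in GFP, epithelial markers (4 genes) to at most 1.65 and 1.32 CPM, and endothelial markers (3 genes) to at most 2.32 and 1.75 CPM. The 5 fibroblast markers, some of which this line also makes, summed to 115 to 126 CPM in ERRg and 219 to 251 CPM in GFP. The part of these differences between libraries in the values of the replication genes was not tested.

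Most replication genes were lower in ERRg cells. By edgeR's quasi-likelihood test with Benjamini-Hochberg adjustment over 21993 genes, 33 of the 47 fell, 9 rose and 5 were not called at an adjusted p under 0.05. Over all genes tested 35.9% fell and 38.8% rose, and among the 13433 coding genes of the same fit 50.6% fell and 29% rose. The median log2 fold change (ERRg over GFP) was -0.65 for the members, 0.09 for all genes and -0.30 for coding genes. The CPM of the groups did not overlap in the direction of lower ERRg for 33 members (34.6% of all genes) and in the direction of higher ERRg for 7 (33.9% of all genes). Tested against a log2 fold change of 1, 9 members fell further than that (10.5% of all genes) and 0 rose further (7.69% of all genes). Summed over the 47 genes, ERRg libraries held 2044 ± 64.0 CPM and GFP libraries held 3471 ± 117 CPM (SD, n = 4 each). In bulk RNA, fewer cells passing through S phase and less RNA of these genes per cell cannot be told apart. With library totals in place of TMM, the median of all genes shifted to 0.50 and the members split into 25 lower and 13 higher, while all genes split into 5383 lower and 11791 higher. Scaling moves all genes alike, whereas the set of genes fitted did change the members' median minus that of all genes: it was -0.743 (log2) with TMM, -0.48 with a stricter filter on low counts and -0.354 among coding genes alone.

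**Figure D1:**
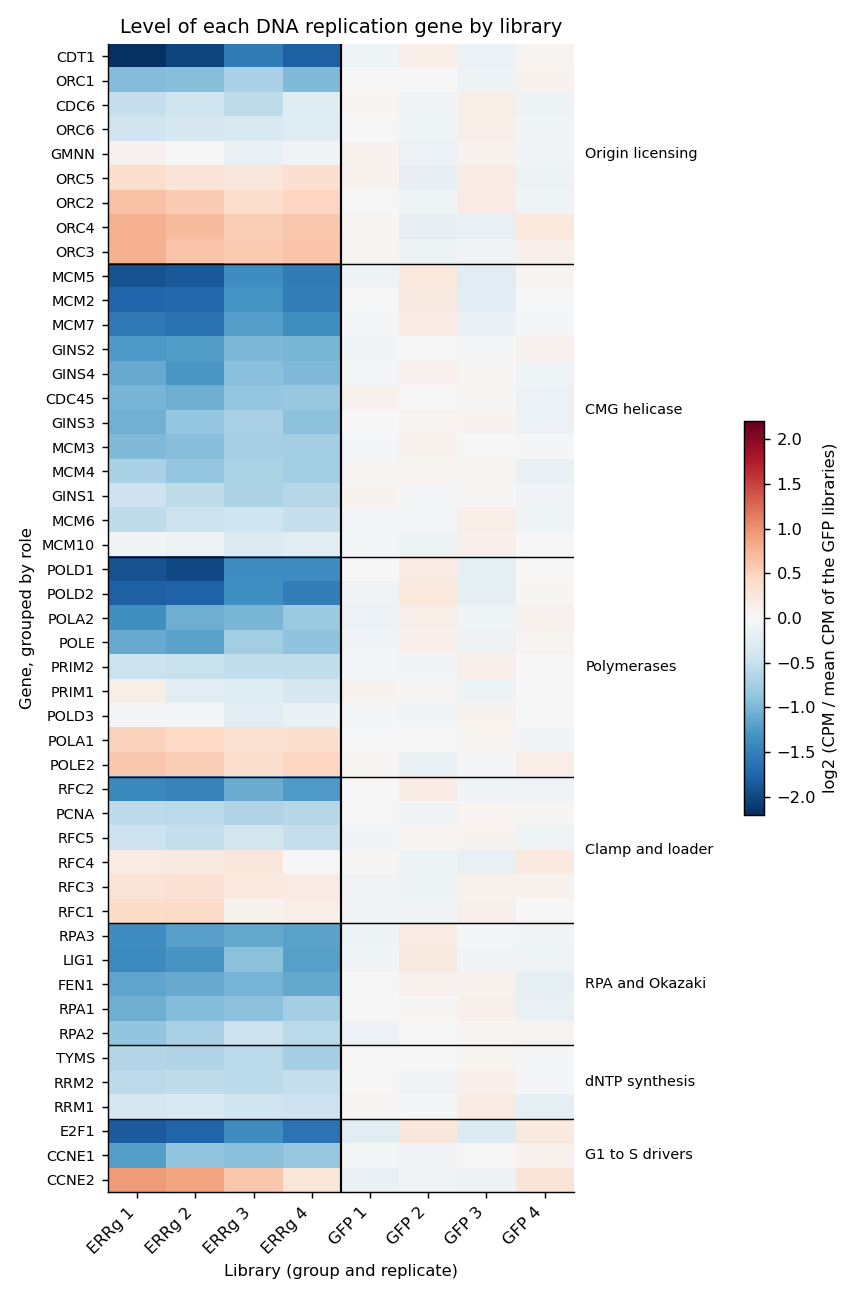
Level of each of the 47 genes in each library, as log2 of CPM over the mean CPM of the GFP libraries (blue lower, red higher), with genes grouped by role and the 4 ERRg libraries left of the 4 GFP libraries. The helicase, RPA and deoxynucleotide rows are blue or pale in all 4 ERRg libraries, while ORC2 to ORC5, POLA1 and POLE2 are red in all 4.

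The response of the members followed the base composition of their transcripts. Across the 47 genes, the log2 fold change and the GC content of the longest annotated transcript had a Pearson r of -0.882 and a Spearman rho of -0.905, and across 13392 coding genes the r was -0.655; genes of the same libraries are not independent points, and these are descriptions. Of the 13 members with a GC content of 52% or more, 13 fell, with a median log2 fold change of -1.44. Of the 15 members from 45% to 52% GC, 14 fell and 0 rose (median -0.76). Of the 19 members under 45% GC, 6 fell and 9 rose (median -0.02). Set against coding genes within 1 percentage point of their own GC content, 40 members lay below the median, 6 of them below the 10th percentile, and 0 lay above the 90th. Coding genes of like GC shifted too: their median was -0.74 near CCNE1 (52.9% GC) and -1.33 near POLD1 (65.0%), the ends of the GC-rich class. Near CCNE2 (36.9% GC) and RFC5 (44.5%), the ends of the class under 45%, it was 0.64 and -0.02. The share of coding genes called in each class was not counted. The bounds of 45% and 52% were set after the values were seen. Within ERRg, the libraries also differed along GC content. This was read from the members above the members' median GC content (45.9%), a wider set than the class of 52% or more. Their median deviation from each gene's mean over all libraries was -0.70 and -0.67 on the log2 scale in replicates 1 and 2. It was -0.44 in each of replicates 3 and 4.

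**Figure D2:**
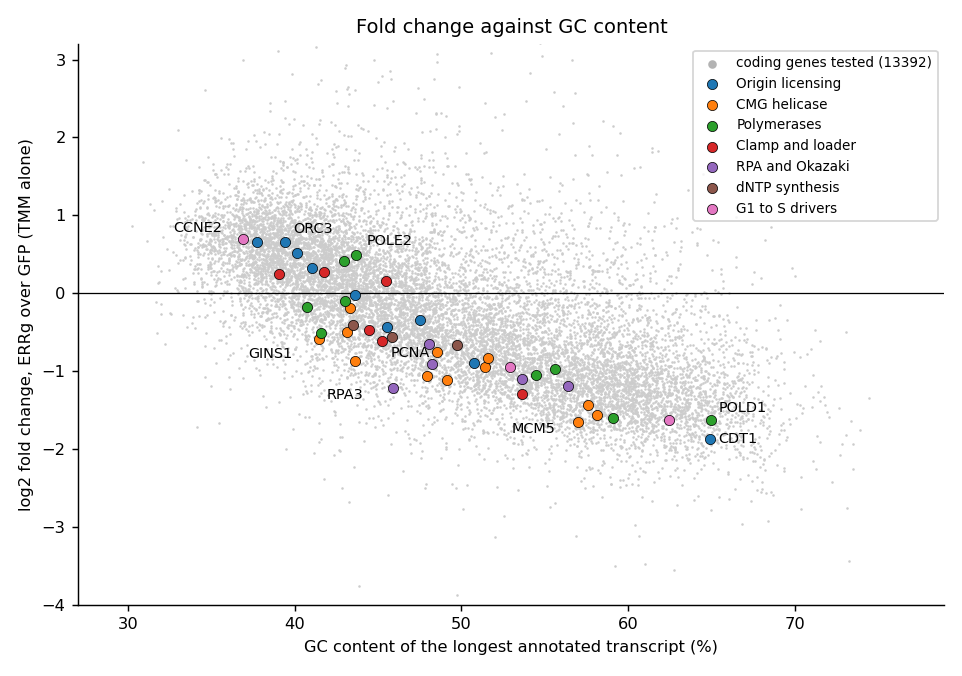
Log2 fold change (ERRg over GFP, TMM scaling alone) against GC content of the longest annotated transcript in percent, for 13392 coding genes (grey) and the 47 replication genes (coloured by role). Members run down the same slope as the coding genes, from CCNE2 and ORC2 to ORC5 at the upper left to POLD1 and CDT1 at the lower right, mostly in the lower part of the grey cloud; coding genes beyond the axis limits are not drawn.

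Each gene is therefore also given from a second fit, in which offsets for GC content, transcript length and gene span were taken out of each library, with 13400 coding genes tested. With the offsets, 33 members fell (39.6% of the coding genes did), 5 rose (32.2%) and 9 were not called, and the members' median was -0.35, against -0.05 for all genes of that fit. In both fits 29 members fell and 2 rose (ORC3 and POLE2), and 2 were called in opposite directions (ORC6 and RFC3). How many coding genes were called alike in both fits was not counted, so these member counts have no background to be set against. Whether the relation to GC arose in the cells or in the making of the libraries was not tested.

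**Figure D3:**
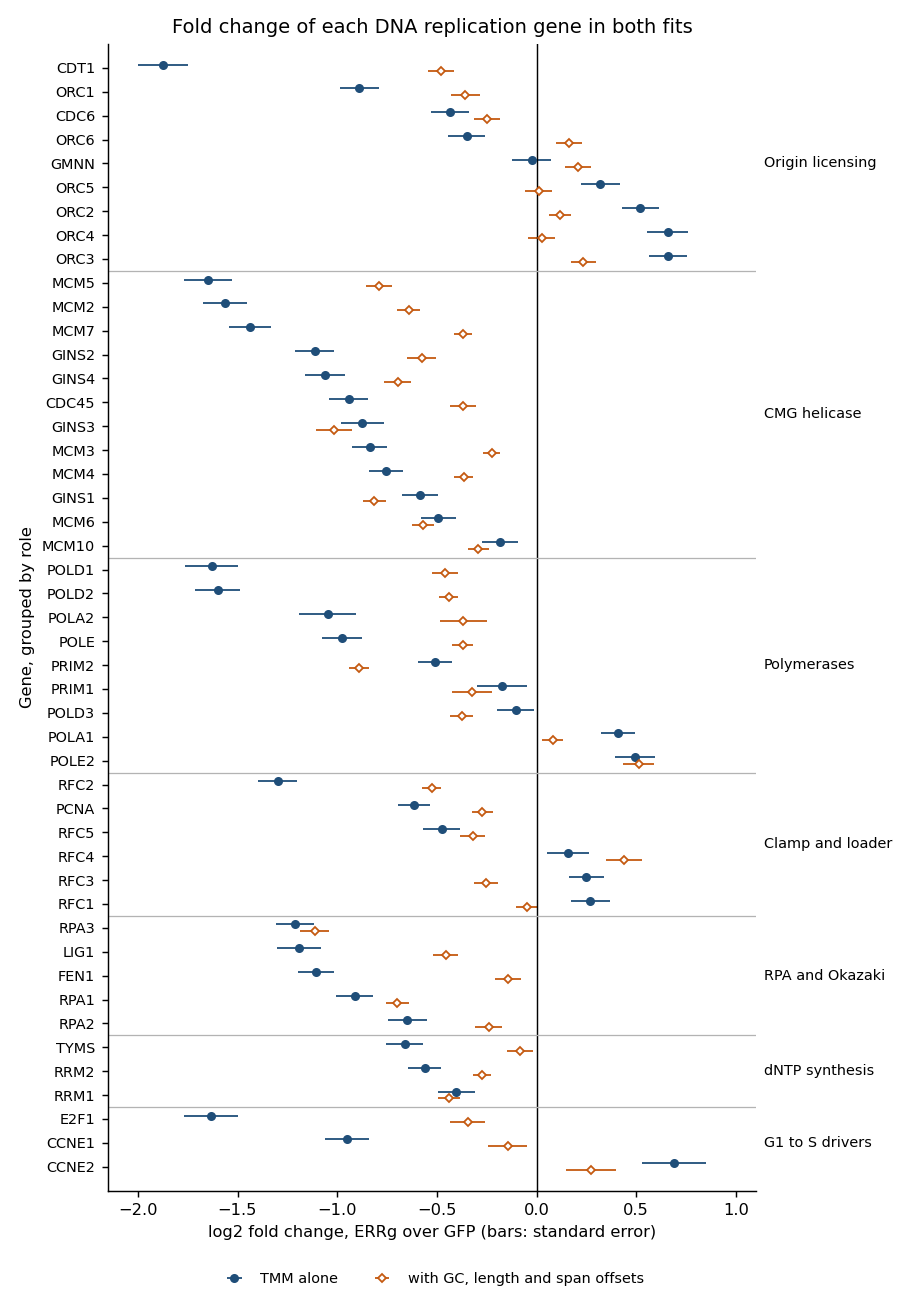
Log2 fold change (ERRg over GFP) of each gene with its standard error, from the fit with TMM scaling alone (filled circles) and from the fit with the offsets (open diamonds), grouped by role. The diamonds lie closer to 0 than the circles for GC-rich genes such as CDT1, POLD1 and POLD2, while those of GINS1, GINS3, MCM6 and PRIM2 lie further below 0.

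Origin recognition and licensing split in both directions. Of the 9 genes of this group, 4 fell and 4 rose, and with the offsets 3 fell and 3 rose. Among coding genes 50.6% fell and 29% rose, and with the offsets 39.6% and 32.2%. CDT1, which brings the MCM ring to ORC, fell the most of all 47 genes. It had 8.06, 9.54, 13.2 and 11.1 CPM in ERRg libraries against 36.1, 42.5, 35.1 and 40.2 CPM in GFP libraries. Every ERRg library was below every GFP library, and the ERRg mean was 27.3% of the GFP mean by the fitted fold change. The log2 fold change of CDT1 was -1.88 (SE 0.126, edgeR adjusted p = 1.4e-10), past a log2 fold change of 1 (adjusted p = 3.09e-06), and -0.48 (SE 0.0666, adjusted p = 4.04e-06) with the offsets. CDT1 was the member with the second highest GC content (64.9%), after POLD1. Its inhibitor geminin (GMNN) was at 24.7 ± 1.79 CPM (SD, n = 4) in ERRg and 25.1 ± 1.88 CPM (SD, n = 4) in GFP, with overlapping libraries and an edgeR adjusted p of 0.821, and rose with the offsets by a log2 fold change of 0.21 (adjusted p = 0.009). With a GC offset alone GMNN was at -0.10 (edgeR adjusted p = 0.132), and its rise with all offsets was lost when the ERRg libraries were summed in pairs (0.17, adjusted p = 0.0635). With library totals GMNN was called higher (0.38, edgeR adjusted p = 0.00226), as it was with upper-quartile factors, a stricter filter or coding genes alone (0.21 to 0.29). CDC6, the ATPase that loads MCM with CDT1, had 29.4 ± 2.68 CPM in ERRg and 39.7 ± 2.88 CPM in GFP, a log2 fold change of -0.44 (edgeR adjusted p = 0.000339) and of -0.25 with the offsets (adjusted p = 0.00181). CDC6 was no longer called with library totals (log2 fold change -0.03), upper-quartile factors (-0.13) or coding genes alone (-0.12) in place of the main setting.

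Within ORC itself, the subunits parted. ORC1, the subunit whose level is known to cycle with the cell cycle in human cells, had 14.9, 15.1, 17.7 and 14.8 CPM in ERRg libraries against 29.3, 29, 26.9 and 30.7 CPM in GFP libraries. ORC1 fell with no overlap, by a log2 fold change of -0.89 (SE 0.0977, edgeR adjusted p = 6.47e-08), and of -0.36 with the offsets (adjusted p = 0.000275). ORC3, a core subunit of the ring, had 34.9, 31.4, 30.3 and 31.4 CPM in ERRg libraries against 21.2, 18.8, 19.3 and 21.9 CPM in GFP libraries. All ERRg libraries were above all GFP libraries, and ORC3 rose in both fits, with a log2 fold change of 0.66 (SE 0.0944, edgeR adjusted p = 2.71e-06) and of 0.23 with the offsets (adjusted p = 0.0029). ORC2, ORC4 and ORC5 rose as well, with log2 fold changes of 0.52, 0.66 and 0.32 and no overlap between groups. With the offsets none of these 3 was called, their values being 0.12, 0.03 and 0.01 (edgeR adjusted p = 0.0558, 0.756 and 0.9), although ORC2 was called when GFP replicate 3 was left out (0.16, adjusted p = 0.0138). The call of ORC5 was lost without GFP replicate 2 (log2 fold change 0.22, edgeR adjusted p = 0.0536) and without GFP replicate 4 (0.22, adjusted p = 0.0585). ORC6, the smallest subunit, depended on the scaling: its log2 fold change was -0.35 (edgeR adjusted p = 0.00203) with TMM, 0.05 with library totals (adjusted p = 0.642) and 0.16 with the offsets (adjusted p = 0.0299). It was also not called with upper-quartile factors (-0.05), coding genes alone (-0.04) or a stricter filter (-0.12). The ORC6 call with the offsets was lost without ERRg replicate 2 or 4 (0.16 and 0.14, edgeR adjusted p = 0.0634 and 0.0849) and without GFP replicate 1 or 2 (0.16 and 0.11, adjusted p = 0.0535 and 0.125).

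Per kb of the longest annotated transcript, a rough scale for setting levels of different genes side by side, the order of the ORC subunits changed with the group. These levels hold no offsets for GC content. With the offsets ORC2, ORC4 and ORC5 were not called between the groups and ORC6 was higher in ERRg. The part of the GC relation in the changed order was not tested. In ERRg cells ORC2 (17.8 CPM per kb) and ORC5 (17.1) were highest and overlapped, followed by ORC3 (12.7) and ORC6 (12.3), which also overlapped, then ORC4 (7.29) and ORC1 (4.95). In GFP cells ORC6 (15.7 CPM per kb) was highest, with ORC5 (13.7) overlapping it, followed by ORC2 (12.4), which overlapped ORC5, then ORC1 (9.17) and ORC3 (8.07), which overlapped each other, and ORC4 (4.62). ORC1 was the lowest subunit in ERRg cells and lay above ORC3 and ORC4 in its mean in GFP cells.

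**Figure D4:**
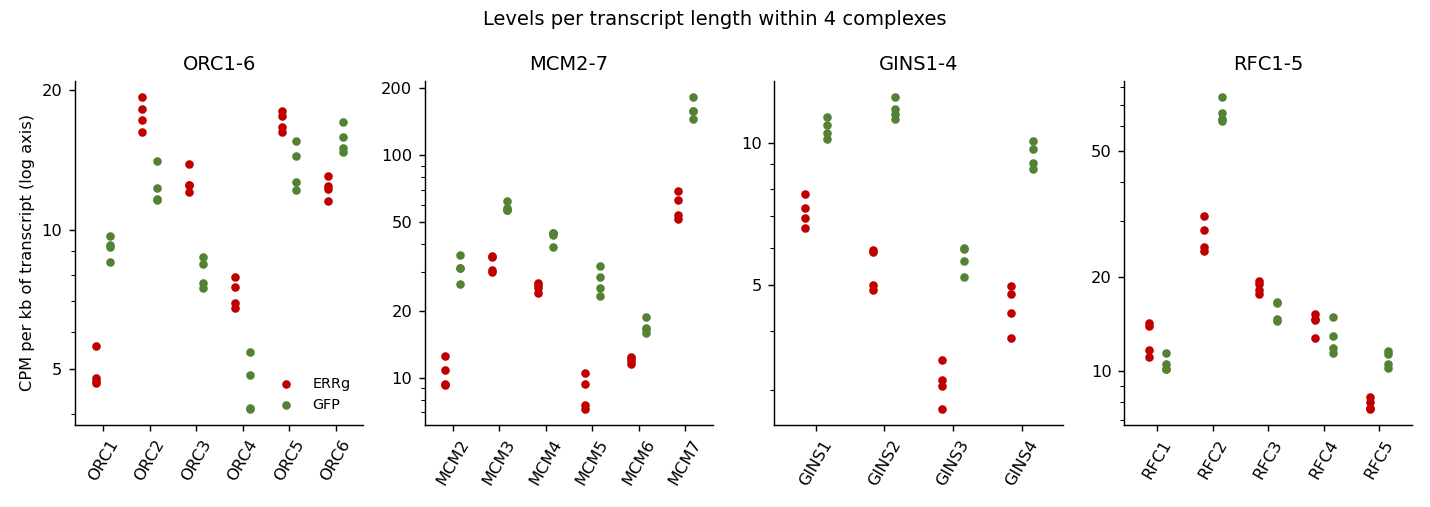
Level per transcript length (CPM per kb, log axis) of the subunits of ORC, MCM, GINS and RFC, with 1 point per library, ERRg (red) left of GFP (green) for each gene. All MCM and GINS subunits are lower in each ERRg library than in any GFP library, while ORC2 to ORC5 are higher and RFC subunits go both ways.

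The helicase genes moved in one direction. Of the 12 genes 11 fell and 0 rose, and with the offsets 12 fell, with medians of -0.91 and -0.57. Among coding genes 50.6% fell, and with the offsets 39.6%. All 6 subunits of the MCM ring (MCM2 to MCM7), the motor of the helicase, fell in both fits. MCM5 had 33.3, 34.9, 48.4 and 43.2 CPM in ERRg libraries against 116, 147, 107 and 130 CPM in GFP libraries. No ERRg library came near a GFP library, and the fitted level in ERRg was 31.9% of that in GFP. The log2 fold change of MCM5 was -1.65 (SE 0.121, edgeR adjusted p = 3.02e-10) and -0.79 (SE 0.0657, adjusted p = 6.67e-09) with the offsets, the lowest of the ring in both fits. MCM2 had 33.7, 34.1, 45.4 and 39.5 CPM in ERRg libraries against 113, 130, 95.4 and 113 CPM in GFP libraries, a log2 fold change of -1.56 (SE 0.111, edgeR adjusted p = 2.24e-10) and of -0.64 with the offsets (adjusted p = 1.8e-08). MCM7 had 167, 159, 214 and 195 CPM in ERRg libraries against 487, 566, 449 and 489 CPM in GFP libraries, a log2 fold change of -1.44 (SE 0.105, edgeR adjusted p = 2.76e-10) and of -0.37 with the offsets (adjusted p = 9.9e-07). MCM2, MCM5 and MCM7, the 3 GC-rich subunits (57.0% to 58.1% GC), were the ones past a log2 fold change of 1 (edgeR adjusted p = 8.63e-05, 4.7e-05 and 0.000476), and in each of them ERRg replicates 3 and 4 were above replicates 1 and 2.

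The other ring subunits fell by less. MCM3 had 105 ± 8.86 CPM in ERRg and 188 ± 8.53 CPM in GFP, and MCM4 had 107 ± 4.93 CPM in ERRg and 180 ± 12.3 CPM in GFP, each SD being over 4 libraries. Their log2 fold changes were -0.84 and -0.75 (edgeR adjusted p = 3.27e-08 and 1.06e-07), and -0.23 and -0.37 with the offsets (adjusted p = 0.000166 and 2.33e-06). MCM6, with the lowest GC content of the ring (43.1%), had 43.2, 45.9, 46.6 and 44.8 CPM in ERRg libraries against 62.5, 61.9, 69.9 and 59.4 CPM in GFP libraries. The MCM6 groups stayed apart, and it fell, at -0.49 on the log2 scale (SE 0.0869, edgeR adjusted p = 3.6e-05) and at -0.57 (SE 0.0542, adjusted p = 3.66e-08) with the offsets, so taking out GC content did not bring it closer to 0. With library totals MCM6 was at -0.09 and not called, and with coding genes alone it was at -0.18 and just short of a call (edgeR adjusted p = 0.0501). The ring holds its proteins in equal copies, while the RNA levels per length ran from 8.69 CPM per kb (MCM5) to 59.6 (MCM7) in ERRg cells and from 17.0 (MCM6) to 161 (MCM7) in GFP cells. MCM7 was the highest subunit in each library of both groups.

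The GINS complex and CDC45, the cofactors that turn the ring into a working helicase, all fell in both fits. GINS3 had 8.76, 10.1, 11.1 and 9.8 CPM in ERRg libraries against 18.0, 19.1, 19.1 and 16.6 CPM in GFP libraries. GINS1 had 25.3, 23.6, 21.5 and 22.6 CPM in ERRg libraries against 36.7, 34.0, 35.4 and 33.1 CPM in GFP libraries. Both were lower in every ERRg library, and both have a low GC content (43.6% and 41.4%). The log2 fold change of GINS3 was -0.87 (SE 0.107, edgeR adjusted p = 3.06e-07) and -1.02 (SE 0.0904, adjusted p = 1.57e-08) with the offsets. That of GINS1 was -0.58 (SE 0.0914, edgeR adjusted p = 8.3e-06) and -0.82 (SE 0.0574, adjusted p = 9.55e-10) with the offsets, and -0.18 and not called with library totals. GINS2, GINS4 and CDC45 fell, at -1.11, -1.06 and -0.94 on the log2 scale, and at -0.58, -0.70 and -0.37 with the offsets. Some 23.6% of the annotated exon bases of GINS4 lie opposite another gene on the other strand. MCM10, which helps to activate the assembled helicase, had 36.2 ± 2.42 CPM in ERRg and 41.2 ± 2.66 CPM in GFP with overlapping libraries (edgeR adjusted p = 0.0708), and fell with the offsets (log2 fold change -0.29, adjusted p = 6.72e-05). MCM10 was also called lower when ERRg replicate 1 or any single GFP replicate was left out (log2 fold changes -0.28 to -0.23). With library totals it was called higher instead (0.22, edgeR adjusted p = 0.0473), so its direction depends on the scaling.

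**Figure D5:**
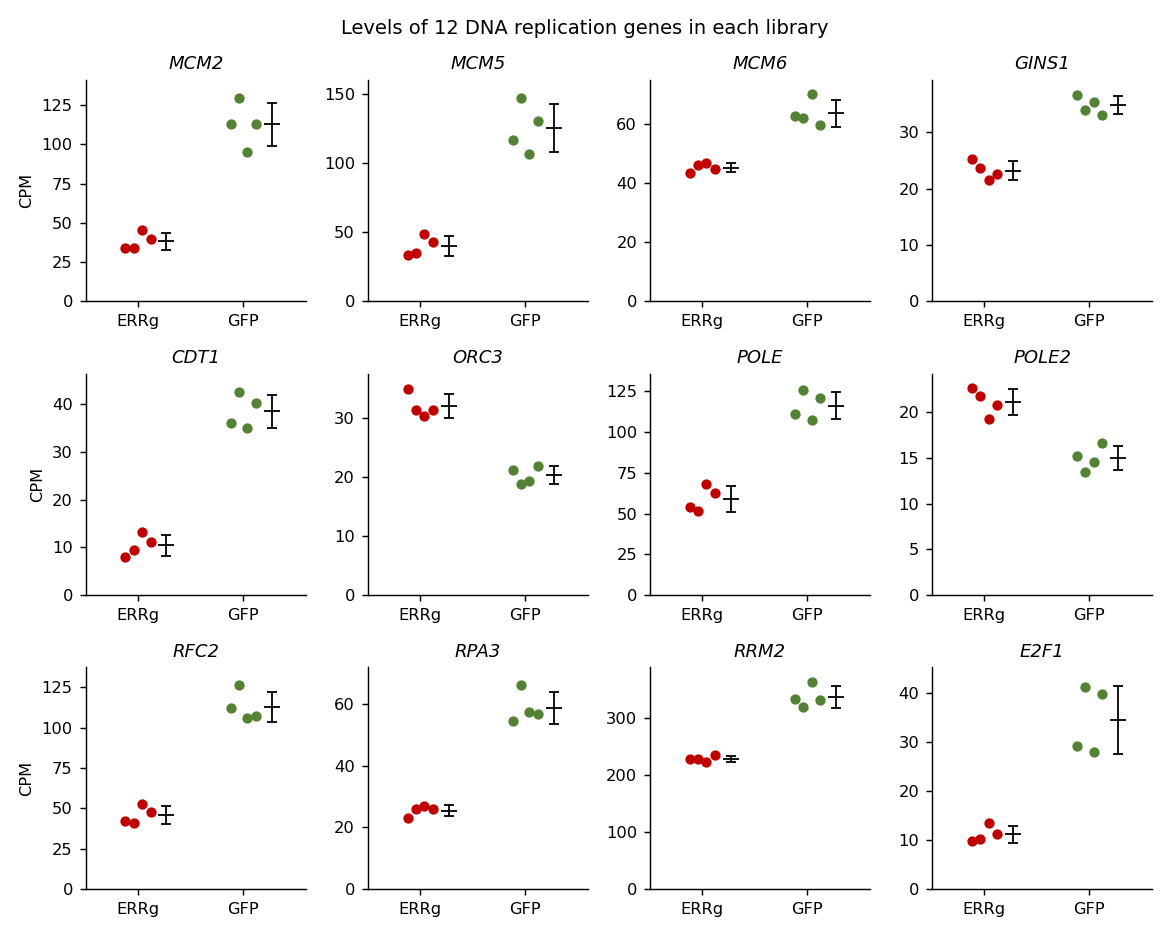
Level in CPM of 12 replication genes in each library (points), with the mean and SD of each group of 4 (black bar), ERRg left of GFP, each panel with its own axis starting at 0. The groups are apart in all 12 panels, with ERRg below GFP except for ORC3 and POLE2.

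Among the polymerases, subunits of one enzyme went in different directions. Of 9 genes 5 fell and 2 rose, and with the offsets 7 fell and 1 rose. Among coding genes 50.6% fell and 29% rose, and with the offsets 39.6% and 32.2%. POLD1, the catalytic subunit of polymerase delta, which makes the lagging strand, had 11.9, 11.4, 17.4 and 17.3 CPM in ERRg libraries against 44.5, 50.8, 39.0 and 45 CPM in GFP libraries. Its accessory subunit POLD2 had 63.4, 64.1, 86.4 and 76.9 CPM in ERRg libraries against 208, 260, 191 and 223 CPM in GFP libraries. Both stood apart between the groups, at 32.3% and 33.0% of the GFP level, with ERRg replicates 1 and 2 lowest. Their log2 fold changes were -1.63 and -1.60 (edgeR adjusted p = 8.88e-10 and 2.1e-10), and -0.46 and -0.44 with the offsets (adjusted p = 5.41e-06 and 2.64e-07). POLD3, another subunit of polymerase delta, had 19.9 ± 1.34 CPM in ERRg and 21.5 ± 0.792 CPM in GFP, with a log2 fold change of -0.10 (edgeR adjusted p = 0.317), and fell, at -0.38 with the offsets (adjusted p = 1.95e-05). POLD3 was called higher instead with library totals (0.30, edgeR adjusted p = 0.0108) and with coding genes alone (0.21, adjusted p = 0.0463). Same-strand exons of another gene overlap 8.64% of POLD1's exon bases.

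Polymerase epsilon, the leading-strand enzyme, was split. POLE, its catalytic subunit, had 53.9, 51.4, 68.4 and 62.8 CPM in ERRg libraries against 111, 126, 108 and 121 CPM in GFP libraries. POLE2, its accessory subunit, had 22.6, 21.7, 19.2 and 20.8 CPM in ERRg libraries against 15.2, 13.5, 14.6 and 16.6 CPM in GFP libraries. POLE was lower and POLE2 higher in each ERRg library than in any GFP library. The log2 fold change of POLE was -0.98 (SE 0.0999, edgeR adjusted p = 2.35e-08) and -0.37 with the offsets (adjusted p = 4.36e-06). That of POLE2 was 0.49 (SE 0.101, edgeR adjusted p = 0.000184) and 0.51 (SE 0.0775, adjusted p = 1.11e-05) with the offsets, the largest rise of any member there. The ratio of POLE to POLE2 counts, free of library scaling, was 2.39, 2.37, 3.56 and 3.02 in ERRg libraries against 7.29, 9.35, 7.38 and 7.27 in GFP libraries. This pair was chosen after its values were seen, so the ratio is a description. The ratio holds no offset for GC content, which was 55.6% for POLE and 43.7% for POLE2. Coding genes within 1 percentage point of these had median log2 fold changes of -0.92 and 0.06. The part of the GC relation in the ratio was not tested.

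Polymerase alpha and primase, which lay down the first primer, were split as well, with the catalytic subunit of the polymerase higher and its regulatory subunit lower. POLA1, the catalytic subunit, had 53.0, 50.5, 47.2 and 47.5 CPM in ERRg libraries against 37.4, 37.6, 38.5 and 35.9 CPM in GFP libraries. POLA1 rose without overlap by a log2 fold change of 0.41 (SE 0.0859, edgeR adjusted p = 0.00024), and was at 0.08 with the offsets (adjusted p = 0.173). POLA2, its regulatory subunit, fell to 3.45 ± 0.524 CPM in ERRg, against 7.15 ± 0.649 CPM in GFP, at -1.05 on the log2 scale (edgeR adjusted p = 1.62e-06) and at -0.37 with the offsets (adjusted p = 0.0105). Exons of another gene on the same strand cover 35.1% of POLA2's exon bases, and reads there are not assigned to either gene by usual counting, so its level is uncertain. PRIM2, the large primase subunit, had 62.3, 61.3, 59.5 and 58.9 CPM in ERRg libraries against 83.9, 82.1, 93.2 and 85.3 CPM in GFP libraries. PRIM2 fell without overlap, at a log2 fold change of -0.51 (SE 0.084, edgeR adjusted p = 1.55e-05), and was further below 0 with the offsets, at -0.89 (SE 0.0511, adjusted p = 8.38e-11), though with library totals it was at -0.11 and not called. A near copy, PRIM2BP, is annotated, so the split of reads between both is uncertain. PRIM1, the catalytic primase subunit, had 7.51 ± 1.17 CPM in ERRg and 8.46 ± 0.46 CPM in GFP with overlap (log2 fold change -0.17, edgeR adjusted p = 0.22), and fell with the offsets (-0.32, adjusted p = 0.00792). PRIM1 was called lower when ERRg replicate 1 was left out (log2 fold change -0.30, adjusted p = 0.0457).

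The sliding clamp fell while its loader was divided. PCNA, the clamp that holds polymerases on DNA, had 80.4, 79.9, 76 and 77.6 CPM in ERRg libraries against 120, 115, 124 and 122 CPM in GFP libraries. The ERRg libraries were close together and all below GFP, at 65.3% of the GFP level, with a log2 fold change of -0.62 (SE 0.0814, edgeR adjusted p = 8.91e-07) and of -0.27 with the offsets (adjusted p = 0.000112). PCNA has 3 pseudogenes by name in the annotation, whose reads cannot be told apart with certainty. RFC2, a small subunit of the loader, had 42.2, 40.8, 52.9 and 47.8 CPM in ERRg libraries against 112, 126, 106 and 107 CPM in GFP libraries. RFC2 was well below GFP in each ERRg library, with a log2 fold change of -1.30 (SE 0.0995, edgeR adjusted p = 4.59e-10), past a log2 fold change of 1 (adjusted p = 0.00563), and of -0.53 with the offsets (adjusted p = 1.96e-08). RFC5 fell as well, at a log2 fold change of -0.47 (edgeR adjusted p = 0.000109) and at -0.32 with the offsets (adjusted p = 0.000149). It was not called with library totals (-0.07), upper-quartile factors (-0.17) or coding genes alone (-0.16).

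Of the remaining loader subunits, RFC1 and RFC3 gave no steady direction, while RFC4 was higher wherever it was called. RFC1, the large subunit, had 68.3, 69.6, 54.4 and 57.3 CPM in ERRg libraries against 49.6, 49.9, 55.8 and 51.7 CPM in GFP libraries. Its highest libraries were ERRg replicates 1 and 2, and ERRg replicate 3 lay below GFP replicate 3. RFC1 rose by a log2 fold change of 0.27 (edgeR adjusted p = 0.0161), but the call was lost when ERRg replicate 1 or 2 or any single GFP replicate was left out (0.17 to 0.22, adjusted p = 0.0662 to 0.188), and with the offsets it was at -0.05 (adjusted p = 0.459). RFC3 rose by a log2 fold change of 0.25 (edgeR adjusted p = 0.0159) without overlap and fell, at -0.25 with the offsets (adjusted p = 0.000985). The rise of RFC3 was lost without ERRg replicate 2 and without any single GFP replicate (0.14 to 0.22, edgeR adjusted p = 0.0573 to 0.214). RFC4 was at 20.7 ± 1.53 CPM in ERRg and 18.6 ± 2.24 CPM in GFP (edgeR adjusted p = 0.177), and rose by 0.44 with the offsets (adjusted p = 0.00033) and by 0.56 with library totals (adjusted p = 7.05e-05). It was also called higher with upper-quartile factors (0.46), a stricter filter (0.39), coding genes alone (0.47) and a GC offset alone (0.24).

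Single-strand binding and the joining of Okazaki fragments fell together. All 5 genes fell (50.6% of coding genes did), none overlapping between groups (34.6% of all genes were lower without overlap), and 4 fell with the offsets (39.6%). RPA3, the smallest subunit of the RPA complex that coats unwound DNA, had 22.9, 25.8, 26.8 and 26 CPM in ERRg libraries against 54.7, 66.3, 57.4 and 56.7 CPM in GFP libraries. RPA3 in ERRg was at 43.2% of the GFP level, with a log2 fold change of -1.21 (SE 0.0945, edgeR adjusted p = 5.81e-10), past a log2 fold change of 1 (adjusted p = 0.0269). With the offsets RPA3 was at -1.11 (SE 0.072, edgeR adjusted p = 3.63e-10), the lowest of the 47 genes in that fit. RPA1, the subunit with most of the DNA contacts, fell, at a log2 fold change of -0.91 (edgeR adjusted p = 2.31e-08) and at -0.70 with the offsets (adjusted p = 4.82e-09), and RPA2 at -0.65 (adjusted p = 4.65e-06) and at -0.24 with the offsets (adjusted p = 0.00391). LIG1, the ligase that seals Okazaki fragments, had 22.3 ± 3.43 CPM in ERRg and 51.1 ± 5.14 CPM in GFP, a log2 fold change of -1.19 (edgeR adjusted p = 5.08e-09) and of -0.46 with the offsets (adjusted p = 2.8e-06). FEN1, the nuclease that trims their flaps, had 46.4 ± 1.78 CPM in ERRg and 99.8 ± 9.26 CPM in GFP, a log2 fold change of -1.11 (edgeR adjusted p = 1.13e-09), but was at -0.14 with the offsets (adjusted p = 0.0574). That FEN1 value passed the threshold when ERRg replicate 1 or 2 or GFP replicate 4 was left out (-0.19 to -0.17).

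The enzymes that make deoxynucleotides fell by less. RRM2, the S phase subunit of ribonucleotide reductase, had 227, 228, 223 and 235 CPM in ERRg libraries against 333, 320, 363 and 331 CPM in GFP libraries. The ERRg libraries lay within a narrow band below GFP, at 67.7% of its level, with a log2 fold change of -0.56 (SE 0.0826, edgeR adjusted p = 3.69e-06) and of -0.28 with the offsets (adjusted p = 3.1e-05). With library totals RRM2 was at -0.16 and not called, and exons of another gene on the same strand cover 20.2% of its exon bases. RRM1, the large subunit, had 70.2 ± 2.72 CPM in ERRg and 92.8 ± 10.2 CPM in GFP, with a log2 fold change of -0.40 (edgeR adjusted p = 0.000548) and of -0.44 with the offsets (adjusted p = 9.81e-07), but of 0.00072 with library totals. RRM1 was also not called with upper-quartile factors (-0.10), coding genes alone (-0.09) or a stricter filter (-0.17). TYMS, thymidylate synthase, had 15.9 ± 0.699 CPM in ERRg and 25.1 ± 0.637 CPM in GFP, a log2 fold change of -0.66 (edgeR adjusted p = 1.78e-06), and was at -0.08 with the offsets (adjusted p = 0.27). Some 46.6% of the exon bases of TYMS lie opposite another gene.

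The 3 drivers of the passage from G1 to S did not move as one. E2F1, the transcription factor, had 9.75, 10.1, 13.5 and 11.2 CPM in ERRg libraries against 29.2, 41.2, 28.0 and 39.9 CPM in GFP libraries. E2F1 was lower in each ERRg library, with GFP replicates 2 and 4 highest, and it fell, at -1.63 on the log2 scale (SE 0.135, edgeR adjusted p = 1.23e-09), past a log2 fold change of 1 (adjusted p = 0.000181), and at -0.35 with the offsets (adjusted p = 0.00218). CCNE1, one of the pair of E-type cyclins that activate CDK2, had 8.46 ± 0.985 CPM in ERRg and 16.4 ± 0.839 CPM in GFP, a log2 fold change of -0.95 (edgeR adjusted p = 1.65e-07) and of -0.15 with the offsets (adjusted p = 0.184). CCNE2, the other, had 7.65, 7.25, 5.99 and 4.80 CPM in ERRg libraries against 3.60, 3.79, 3.71 and 4.86 CPM in GFP libraries. CCNE2 rose by a log2 fold change of 0.69 (SE 0.161, edgeR adjusted p = 0.000653), although ERRg replicate 4 lay just under GFP replicate 4. With the offsets CCNE2 was at 0.27 (edgeR adjusted p = 0.0614), and was called without ERRg replicate 4 (0.36, adjusted p = 0.0149) or GFP replicate 4 (0.35, adjusted p = 0.0268).

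Genes around the fork were read from 5 further lists with 121 genes, of which 116 were tested. Of these 62 fell and 27 rose, and with the offsets 62 fell and 19 rose. Among coding genes 50.6% fell and 29% rose, and with the offsets 39.6% fell and 32.2% rose, so the share of these genes that fell was near that of coding genes without the offsets. Among the 39 tested accessory factors of forks and origins 17 fell and 12 rose. LRWD1, which binds ORC to chromatin, RNASEH2C, a subunit of the nuclease that removes ribonucleotides, and POLE4, a small subunit of polymerase epsilon, had the smallest p, with log2 fold changes of -1.64, -1.64 and -1.42, and of -0.41, -0.62 and -0.66 with the offsets. ASF1B of this list was at 0 reads in all libraries and is only listed at 0. Among 12 markers of proliferation outside S phase 8 fell and 1 rose, and with the offsets 10 fell and 1 rose. CDC20, PLK1 and CCNB1, which act in mitosis, had log2 fold changes of -1.67, -1.41 and -1.08, and of -0.49, -0.47 and -0.95 with the offsets.

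Supply of deoxynucleotides beyond the members fell for 14 of 18 genes and rose for 2, against 50.6% and 29% of coding genes. TK1, the S phase thymidine kinase, had 21.8, 21.8, 31.8 and 28.2 CPM in ERRg libraries against 96.1, 122, 86.5 and 104 CPM in GFP libraries. TK1 was thus lower in every ERRg library, with a log2 fold change of -1.98 (SE 0.127, edgeR adjusted p = 9.87e-11) and of -0.71 with the offsets (adjusted p = 1.94e-09). DUT, which removes dUTP, fell, at a log2 fold change of -1.17 and at -0.97 with the offsets, and SLC29A1, a nucleoside transporter, at -1.35 and at -0.36. RRM2B, the p53-induced counterpart of RRM2, was named after its values were seen: it had 107, 106, 73.2 and 86.1 CPM in ERRg libraries against 38.5, 43.1, 42.7 and 45.4 CPM in GFP libraries. RRM2B rose by a log2 fold change of 1.13 (SE 0.112, edgeR adjusted p = 1.34e-08) and of 0.61 with the offsets (adjusted p = 1.29e-07). The ratio of RRM2 to RRM2B counts was 2.12, 2.16, 3.04 and 2.73 in ERRg libraries against 8.66, 7.43, 8.51 and 7.30 in GFP libraries, with no overlap. This ratio too holds no offset for GC content, which was 45.8% for RRM2 and 36.4% for RRM2B.

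In the list of E2F, RB and G1 to S control, 16 of 31 tested genes fell and 6 rose, against 50.6% and 29% of coding genes. CDK4, the kinase that phosphorylates RB with D-type cyclins, had 55.2, 52.2, 76.4 and 67.8 CPM in ERRg libraries against 202, 284, 215 and 230 CPM in GFP libraries, all lower in ERRg. The log2 fold change of CDK4 was -1.89 (SE 0.124, edgeR adjusted p = 1.15e-10) and -0.99 (adjusted p = 1.1e-09) with the offsets. CCND1, its cyclin partner, fell, at a log2 fold change of -1.16 and at -0.59 with the offsets, and E2F4, a repressive E2F, at -1.44 and at -0.23. CDK6, the kinase that shares the role of CDK4 and was named after its values were seen, rose to 561 ± 61.1 CPM in ERRg, against 231 ± 29.3 CPM in GFP, by a log2 fold change of 1.28 (edgeR adjusted p = 1.09e-09) and of 0.52 with the offsets (adjusted p = 2.33e-07). E2F2 was listed at 0 in all libraries.

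The replication checkpoint, which answers stalled forks, had 7 genes lower and 6 higher of 16, against 50.6% and 29% of coding genes. ATR, its central kinase, had 229, 225, 177 and 190 CPM in ERRg libraries against 66.3, 54.9, 59.2 and 72.0 CPM in GFP libraries. ATR was higher in each ERRg library, at 326% of the GFP level, with a log2 fold change of 1.70 (SE 0.107, edgeR adjusted p = 8.67e-11) and of 1.12 (SE 0.0634, adjusted p = 7.32e-11) with the offsets. ATRIP, the partner that brings ATR to RPA-coated DNA, was at 11.8 ± 1.49 CPM in ERRg and 24.8 ± 0.774 CPM in GFP, a log2 fold change of -1.08 (edgeR adjusted p = 1.09e-08), but at -0.13 with the offsets (adjusted p = 0.0958). PKMYT1, a kinase that restrains CDK1, fell, at a log2 fold change of -1.65 (edgeR adjusted p = 6.01e-09) and was at -0.27 with the offsets (adjusted p = 0.0891), where it was called only without ERRg replicate 2 (-0.38) or GFP replicate 2 (-0.35).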

How the data were processed

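RNA of 8 SH-SY5Y samples went into strand-retaining libraries after removal of ribosomal RNA, per the labels' protocols. Per the submitters' processing notes, the tools were STAR 2.7.8a and HTSeq 0.11.3 on GRCh38, with CASAVA, Trim Galore 0.6.6 and DESeq2; for strand setting and annotation release, none is given in the sources used here. Deposited values are whole read counts for each gene, which the authors did not normalise. The 5 summary lines that name no gene were left out of tests and library sizes. Among them, reads assigned to no exon were 46.7% in ERRg and 20.9% in GFP, and ambiguous reads were 5.44% and 12.1%. Symbols came from a name table, and positions, GC content, length and span from the longest transcript of GENCODE 29 on GRCh38 (these cells may use another). Reads in shared exons or near-identical copies are uncertain. Beside the overlaps given above, 37.1% of CCNE2's exon bases and 23.6% of MCM2's lie opposite another gene. Same-strand exons of another gene cover 16.2% of PRIM1's. RRM2 and RPA2 have 3 pseudogenes by name each, and TYMS has 2.

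Groups were compared with edgeR 4.0.16 in R 4.3.3 (quasi-likelihood, TMM, filterByExpr, two-sided, group alone, Benjamini-Hochberg over all genes tested, adjusted p under 0.05). A gene at 1 CPM of unscaled gene reads rests on at least 21.0 reads. SE is the log2 fold change over the square root of F. Offsets were natural splines (6 degrees of freedom per property) fitted per library to coding genes with a mean of at least 20 reads. On simulated counts, changes of log2 1 and 2 were recovered in 100% in both fits, with false calls in 0.0422% and, with offsets, 0.0458% of unchanged genes. There all genes shared the same dispersion, and 200 genes were changed, as many up as down. Recovery was not split by level, so it was not shown for genes with few reads. For the offset fit every ERRg library carried the same GC trend, unlike the real ones. Changes below log2 1, as many members had, were not simulated, so these shares do not carry over to them. The 47 members, the companion lists and the rule for other names (the 3 smallest p per list) were chosen with earlier results of these data known; RRM2B, CDK6 and the 2 ratios were named after their values were seen. Promoters were printed for the members with the largest changes in each direction that had a single RefSeq entry. Alternatives were other scalings, filters and gene sets, DESeq2 1.42.0, limma-voom (limma 3.58.1), a replicate block and each library left out.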

Additional observations from a re-analysis of the deposited data

Results flagged for a closer look

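Of 94 groups of 4 libraries (47 genes in ERRg and GFP), 4 had a library whose gap to the nearest other, divided by the group's range, exceeded Dixon's critical value; chance flags about 1 in 20. ORC1 in ERRg was one (0.885), with replicate 3 at 17.7 CPM and the others at 14.8 to 15.1 CPM. MCM4 in GFP was another (0.869), with replicate 4 at 162 CPM and the others at 184 to 188 CPM. LIG1 in GFP (0.881) had replicate 2 at 58.7 CPM against 47.9 to 49.2 CPM in the other GFP libraries. CCNE2 in GFP (0.847) had replicate 4 at 4.86 CPM against 3.60 to 3.79 CPM in the other GFP libraries. None of these 4 genes lost its call in the fit without offsets when any single library was left out. Reads assigned to no annotated exon, which no comparison here uses, made up 46.7% of all reads in ERRg against 20.9% in GFP.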

How the results depend on the processing

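Beside 33 members lower and 9 higher, other settings gave 25 to 36 lower and 4 to 13 higher, apart from the test against a log2 fold change of 1 (9 and 0). The count higher was 4 with a GC offset alone, and 5 with all offsets and with the replicate block and all offsets. All genes called higher numbered 5471 with coding genes alone, 4512 with the GC offset, 4321 with all offsets, 4172 with the block and offsets and 1692 past a log2 fold change of 1, against 8529; those lower numbered 5212, 5138 and 2302 with the GC offset, the block and offsets, and past a log2 fold change of 1, against 7899. Companion genes higher numbered 47 with upper-quartile factors, 51 with library totals, 47 with coding genes alone, 17 with the GC offset and 3 past a log2 fold change of 1, and those lower 19 past it. The members' median was -0.68 with DESeq2 size factors, -0.68 with DESeq2's Wald test, -0.35 with upper-quartile factors, -0.24 with library totals, -0.70 with no filter, -0.42 with a stricter filter, -0.34 with coding genes alone, -0.39 with the GC offset, -0.35 with all offsets and -0.34 with the block and offsets. Leaving out single libraries gave medians of -0.75 to -0.64, and of -0.37 to -0.30 with offsets. Signs turned, with a call on at least one side, for ORC5 (-0.005427) and RFC3 (-0.23) with the GC offset, for ORC6 (0.16), RFC1 (-0.0463) and RFC3 (-0.25) with all offsets and, with the block added, at 0.16, -0.0486 and -0.25, and for ORC6 (0.0526) and RRM1 (0.00072) with library totals. Genes not called with TMM alone that were called on the other side of 0 were MCM10 (0.22 with library totals), POLD3 (0.30 with library totals, 0.21 with coding genes alone) and GMNN (0.38 with library totals, 0.28 with upper-quartile factors, 0.21 with a stricter filter, 0.29 with coding genes alone, 0.21 with all offsets and 0.21 with the block and offsets). PRIM1 was above 0 but not called with library totals (0.23). Library totals also ended the calls of MCM6, GINS1, CDC6, RFC5, PRIM2 and RRM2. Upper-quartile factors and coding genes alone each ended those of CDC6, RFC5, RRM1 and ORC6. A stricter filter ended those of RRM1 and ORC6, and coding genes alone ended that of MCM6. The causes of these shifts were not tested.

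Replicate numbers did not pair the libraries (correlations of deviations 0.114, -0.258, -0.161 and -0.0753 for numbers 1 to 4). With the replicate block 33 members fell and 7 rose, while of all 21993 genes 7653 fell and 8191 rose. With the block 40 of 42 member calls were made alike, RFC1 and RFC3 being lost, and with offsets 38 of 38. The share of all genes called alike was not counted. The chi-square of counts per gene was 2.72 between ERRg replicates 1 and 2 and 4.54 between 3 and 4, against 8.74 to 19.5 for the other ERRg pairs and 10.9 to 35.1 in GFP. With ERRg libraries summed in these pairs, chosen after seeing the data, 33 members fell and 7 rose (median -0.68), and with offsets 33 fell and 3 rose. Of all genes, 7922 fell and 8240 rose with the summed pairs, and 5089 fell and 4054 rose with offsets.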
